A study of Homo sapiens with 12 samples.

Results

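The 10 genes described here belong to the WNT pathway and were followed in 6 clones, each grown from a single cell of PC9. PC9 is a human lung adenocarcinoma cell line that carries an activating EGFR deletion. All probes annotated to a listed gene were taken. The genes were the ligands WNT7A, WNT7B and WNT5A, the receptors FZD6 and FZD7, the secreted inhibitor DKK1, the intracellular inhibitor AXIN2, the membrane ubiquitin ligase RNF43 and the transcription factors LEF1 and TCF7L2. Together they had 14 of the 47229 probes on the Illumina bead array. Of these, 12 probes of 9 genes were above the detection limit on both arrays of at least 1 clone. The remaining probes, the only one of RNF43 and a second one of DKK1, were not well above background on any of the 12 arrays.

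Clone B7 was labelled sensitive to gefitinib, an EGFR kinase inhibitor, and the other 5 (D6, E1, E2, E3, E6) were labelled tolerant. Each clone was measured on 2 arrays, and B7 was the only sensitive clone. Plates of single cells were given either gefitinib or its solvent DMSO. All 12 samples carry 1 treatment label, gefitinib at 0.4 to 2 µM over 14 days. The labels settle neither if B7 saw gefitinib nor if the tolerant cells were still in it at harvest, so response and exposure cannot be told apart. Every clone has its own single founder cell, so a difference between 2 clones and a difference between sensitive and tolerant cells cannot be told apart in 1 pair of clones. With B7 the only sensitive clone, the mean of the 5 tolerant clones does not separate sensitivity from other traits of B7 either. The labels do not say that the 2 arrays of a clone came from separate cultures.

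WNT proteins are secreted lipid-modified ligands that bind Frizzled receptors. In the canonical branch, together with the co-receptors LRP5 and LRP6, they stop the destruction complex of AXIN, APC and the GSK3 kinases from degrading beta-catenin, which then acts with LEF1 and the TCF factors on target genes, AXIN2 and DKK1 among them. Other WNT proteins, of which WNT5A is the best known, act largely without beta-catenin through Frizzled, ROR and RYK receptors, and in lung epithelium the WNT7 proteins are known as ligands of the developing and adult airway.

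The epithelial identity of the clones was checked first. All 6 epithelial markers (EPCAM, CDH1, KRT7, KRT8, KRT18 and KRT19) were detected, with a summed scanner intensity of 46500 to 46800 units in B7, against 38100 to 52400 over the tolerant clones. Of the fibroblast, leukocyte and endothelial markers with a probe, 9 were not well above background on any array, among them COL1A2, PDGFRB, PTPRC, CD3E and VWF. Others were detected on both arrays of at least 1 clone: COL1A1 and DCN of fibroblasts, CD14 and LYZ of leukocytes, and CDH5 and PECAM1 of endothelium. The summed intensity of fibroblast markers was 58.4 to 96.2 in B7, against 88.6 to 305 over the tolerant clones, that of leukocyte markers 110 to 139 and 180 to 391, and that of endothelial markers 246 to 262 and 210 to 396. Array brightness, as the 75th percentile of intensity, was 131 in B7 and 118 in E2, against 80.2 to 104 in D6, E1, E3 and E6. The 16 proliferation genes followed the same split, with a median log2 difference from B7 of 0.07 for E2, against -2.19 to -1.10 for D6, E1, E3 and E6. The part of proliferation and brightness in the results on WNT genes was not tested.

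Against B7, the tolerant clones had less WNT7A and more WNT5A, by the largest margins among the members, and both differences had 1 direction in all 5 clones. With the clone as the replicate, neither passed the threshold (adjusted p = 0.0508 for WNT7A and 0.0667 for WNT5A, limma over 12250 genes). Of the 9 members tested, 0 were called at an adjusted p under 0.05, against 2.83% of all genes. At an unadjusted p under 0.05 there were 4 members, WNT5A and AXIN2 higher and WNT7A and LEF1 lower, against 25.2% of all genes. With the clone as a random block in a limma fit of the 12 arrays, WNT5A and AXIN2 were called higher and WNT7A lower, 3 of 9 members against 14.6% of all genes (8.09% higher and 6.48% lower). The median difference of the 9 members was -0.28 log2 units, against 0 for all genes, and their median absolute difference was 0.57 against 0.37. The members were chosen with earlier results of these data known. WNT5A and AXIN2 were above the detection limit in the tolerant clones alone, so they were tested only through the group in which they were high. These counts and medians beside those of all genes are therefore a description. In these bulk samples, a change in the share of cells that express a gene and a change in RNA per cell cannot be told apart.

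Normalized log2 intensity is given below for each gene at its brightest probe. WNT7A (probe ILMN_1778575), a ligand of the airway and other epithelia, stood at 9.72 and 9.70 on the B7 arrays. In the tolerant clones it stood lower, D6 at 7.55 and 7.80, E1 at 7.01 and 7.24, E2 at 6.71 and 6.84, E3 at 5.99 and 6.21, and E6 at 5.96 and 6.18. All 10 tolerant arrays thus lay below both B7 arrays, and the 5 clones formed a descending series rather than 1 level. On the scanner's linear scale, before normalization, the same probe read 1046 and 1040 units in B7, 114 and 138 in D6, and 20.9 and 29.3 in E6, where 1 of the 2 arrays fell under the detection limit. The mean of the 5 tolerant clones was 6.75 ± 0.69 (SD, n = 5 clones) and the difference from B7 was -2.96 ± 0.59 log2 units (SE, 95% interval -4.35 to -1.56), a 7.76-fold lower level.

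Clone by clone, tested over arrays with limma, WNT7A was 4.08-fold lower than B7 in D6 (adjusted p = 1.67e-07) and 12.4-fold lower in E6 (adjusted p = 2.9e-09). These array-level p-values cover only the spread between the 2 arrays of a clone, and the 5 comparisons share the B7 arrays. In the order of levels, B7, D6, E1, E2 and E3 each differed from the next (adjusted p = 1.67e-07, 0.00774, 0.0337 and 0.00157), while E3 and E6 did not differ beyond their spread (adjusted p = 0.883). Both E3 (22.2 and 33.3 scanner units) and E6 stood near the detection limit, so their fold depends on the processing. Over all alternatives the difference of E6 from B7 ran from -4.93 to -3.10 log2 units. The clone-level call of WNT7A sat at the threshold. It passed without clone D6 (adjusted p = 0.0395), without clone E2 (0.0266), and without any 1 of 6 arrays, B7 replicate 1, D6 replicate 2, E1 replicate 2, E2 replicate 2, E3 replicate 1 and E6 replicate 1 (adjusted p = 0.044 to 0.0499). Over all alternatives its adjusted p ranged from 0.000854 to 0.544.

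WNT5A (probe ILMN_1800317), the ligand of the branch without beta-catenin, showed the opposite picture. It was not well above background in B7, with 5.43 and 5.83 log2 units. In the tolerant clones it was detected on all 10 arrays, with E3 at 8.85 and 8.97, D6 at 8.50 and 8.61, E6 at 8.47 and 8.34, E1 at 7.80 and 7.85, and E2 at 7.23 and 7.16. The lowest tolerant arrays were those of E2, still above both B7 arrays. Scanner intensity was 2.23 and 18.1 units in B7, 115 and 124 in E2, and 409 and 456 in E3. The tolerant mean was 8.18 ± 0.67 (SD, n = 5 clones), a difference of 2.55 ± 0.58 (SE, 95% interval 1.17 to 3.92), and with each B7 array set to the lowest detected value the level was at least 4.67-fold higher.

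In single clones the bound for WNT5A ran from at least 2.36-fold in E2 (adjusted p = 3.21e-06) to at least 7.75-fold in E3 (adjusted p = 6.23e-09). Because it was detected in the tolerant clones alone, WNT5A passed the filter on dim probes through the group in which it was high. The order was E3, D6, E6, E1, E2 and B7, and only D6 and E6 did not differ from their neighbour (adjusted p = 0.387). Without E2 the clone-level difference was 2.79 and passed (adjusted p = 0.00891, against 0.00231 to 0.898 over all alternatives), as did 17.3% of all genes. Among the tolerant clones, E2 had the least WNT5A and D6 the most WNT7A. Proliferation genes and brightness stood nearest to B7 in E2, and a relation of either to WNT5A or WNT7A was not tested.

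**Figure D1:**
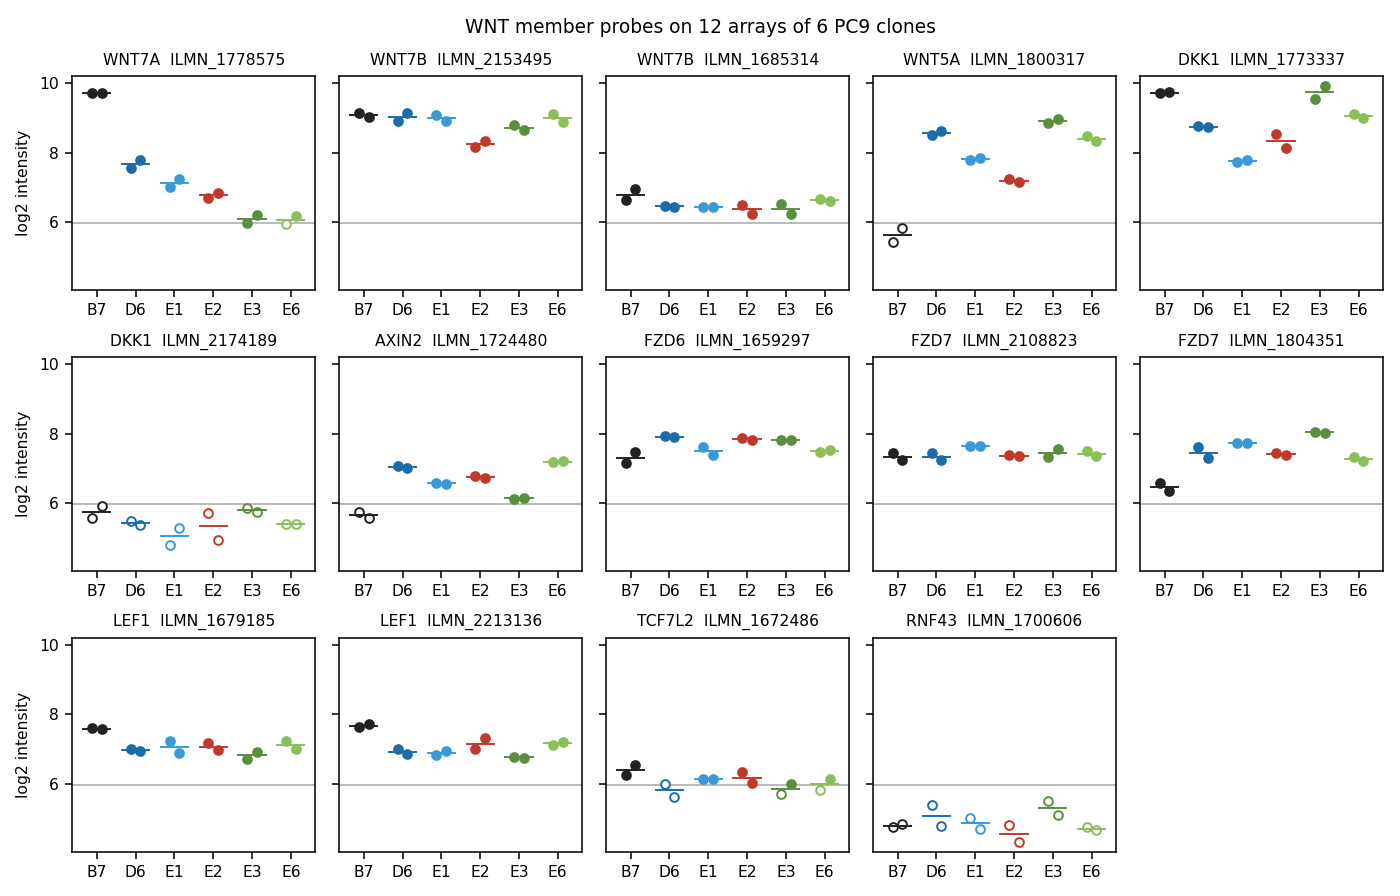
Normalized log2 intensity (vertical axis) of all 14 member probes on the 12 arrays, by clone (horizontal axis), with 1 point per array, a bar at the clone mean, open points for arrays under the detection limit and a grey line at the lowest detected values. WNT7A descends from 9.71 in B7 to 6.07 in E6, WNT5A is open only in B7, and RNF43 and the second DKK1 probe are open on every array.

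The windows upstream of the start of these genes are shown because WNT7A and WNT5A differed most and in opposite directions, and DKK1 because it is a known target of beta-catenin with TCF factors. Sequences are from RefSeq on GRCh38.p14, with the 250 bases before an annotated start, 5′ to 3′ on the gene's strand. The table held entries for 6 of the 10 members (WNT7A, WNT5A, LEF1, DKK1, TCF7L2 and RNF43) with 10 starts. The TCF/LEF core was searched on both strands as CTTTG with AA, AT, TA or TT after it, no other motif was searched, and matches are in capitals. The windows are WNT7A (chr3:13880072-13880321, minus strand), WNT5A at its upstream start (chr3:55487307-55487556, minus strand) and at a second start (chr3:55481399-55481648, minus strand), and DKK1 (chr10:52314031-52314280, plus strand).
WNT7A: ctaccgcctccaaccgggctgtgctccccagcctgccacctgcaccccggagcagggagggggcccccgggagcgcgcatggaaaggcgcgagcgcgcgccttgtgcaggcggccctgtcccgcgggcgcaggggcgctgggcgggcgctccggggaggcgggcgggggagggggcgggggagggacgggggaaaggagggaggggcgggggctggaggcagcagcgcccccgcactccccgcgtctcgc
WNT5A upstream start: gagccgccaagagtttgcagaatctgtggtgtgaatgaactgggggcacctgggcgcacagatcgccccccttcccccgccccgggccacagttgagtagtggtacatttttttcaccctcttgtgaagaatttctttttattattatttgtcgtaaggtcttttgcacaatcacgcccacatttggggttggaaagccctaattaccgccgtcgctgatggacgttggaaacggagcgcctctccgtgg
WNT5A second start: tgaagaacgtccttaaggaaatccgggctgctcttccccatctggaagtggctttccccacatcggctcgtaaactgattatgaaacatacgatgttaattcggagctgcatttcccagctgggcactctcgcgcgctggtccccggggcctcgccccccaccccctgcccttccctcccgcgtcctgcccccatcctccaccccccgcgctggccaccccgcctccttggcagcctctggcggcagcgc
DKK1: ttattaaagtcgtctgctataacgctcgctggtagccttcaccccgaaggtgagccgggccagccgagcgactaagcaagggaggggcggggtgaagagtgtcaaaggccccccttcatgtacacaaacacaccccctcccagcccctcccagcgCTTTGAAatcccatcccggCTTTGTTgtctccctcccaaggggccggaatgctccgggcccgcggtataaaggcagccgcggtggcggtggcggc
A core match lay in 12% of the 35116 promoter windows of the same length. Among the 10 member windows, 2 held one. DKK1 held CTTTGAA and CTTTGTT, which begin 95 and 76 bases before its start, and 1 of the 3 starts of TCF7L2 held CTTTGTT. The windows of WNT7A, WNT5A, LEF1 and RNF43 held none of these letters. The WNT7A window was 80.4% G and C with 29 CG pairs, against 52.8% with 14 and 64.4% with 18 at the starts of WNT5A.

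WNT7B, the other WNT7 ligand, did not follow WNT7A. At its brightest probe (ILMN_2153495) it stood at 9.13 and 9.02 in B7, 8.91 and 9.15 in D6, 9.08 and 8.92 in E1, and 9.10 and 8.89 in E6. It stood at 8.16 and 8.33 in E2 and at 8.78 and 8.66 in E3. The groups overlapped, and the difference was -0.28 ± 0.32 (SE, adjusted p = 0.626, 95% interval -1.03 to 0.48). Over arrays it was 1.78-fold lower than B7 in E2 (adjusted p = 0.000186) and 1.28-fold lower in E3 (adjusted p = 0.0212), the latter not without B7 replicate 1 or E3 replicate 2, with the authors' processed values (adjusted p = 0.0518) or with no filter on dim probes (0.0558). In the order of levels, only E3 and E2 differed as neighbours (adjusted p = 0.00734). A dimmer probe (ILMN_1685314) differed by -0.33 ± 0.18 (adjusted p over probes 0.308).

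The receptors were FZD6 and FZD7. FZD6 (ILMN_1659297), a Frizzled known for planar cell polarity, stood at 7.14 and 7.48 in B7 and between 7.37 and 7.92 on the 10 tolerant arrays. Its difference was 0.40 ± 0.23 (SE, adjusted p = 0.32, 95% interval -0.15 to 0.96). Over arrays it was higher in D6, E2 and E3, by 0.50 to 0.60 log2 units, and the values for E1 and E6 were 0.18 and 0.19. Median scaling ended the calls of FZD6 in D6 (0.19, adjusted p = 0.238) and E3 (0.30, adjusted p = 0.0693). No neighbours in the order of its levels differed beyond their spread.

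The probes of FZD7, a Frizzled that can signal through beta-catenin, disagreed. The brightest (ILMN_2108823) stood at 7.44 and 7.23 in B7 and between 7.24 and 7.65 on the tolerant arrays, with a difference of 0.11 ± 0.19 (adjusted p = 0.766), or -0.14 under scaling by the median. That scaling moved all genes by a median of -0.20. Over arrays it was higher in E1 alone among the 5 clones, by 0.30 (adjusted p = 0.0298), a call lost with median scaling (adjusted p = 0.938), 75th percentile scaling (0.0565) or no filter on dim probes (0.0742) and without B7 replicate 2, E1 replicate 1 or E1 replicate 2 (0.22, 0.098 and 0.0792). The other probe (ILMN_1804351) stood at 6.57 and 6.35 in B7 and between 7.20 and 8.04 on the tolerant arrays, so its groups did not overlap. Its difference was 1.12 ± 0.29 (adjusted p over probes 0.0943), and over arrays it was higher in each tolerant clone, from 1.75-fold in E6 (adjusted p = 0.000203) to 2.96-fold in E3 (adjusted p = 1.63e-06). Its SD between tolerant clones was 0.30, against 0.12 for the brighter probe. A statement on FZD7 therefore rests on which probe is read.

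DKK1, which binds LRP5 and LRP6 and blocks the canonical branch, split the tolerant clones. Its detected probe (ILMN_1773337) stood at 9.70 and 9.75 in B7 and at 9.55 and 9.92 in E3. It stood at 9.12 and 8.98 in E6, 8.76 and 8.74 in D6, 8.53 and 8.12 in E2, and 7.73 and 7.78 in E1. E3 overlapped with B7 and the other 4 clones lay below it. The mean difference was -1.01 ± 0.64 (SE, adjusted p = 0.36, 95% interval -2.51 to 0.50).

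Against B7 over arrays, DKK1 was lower by 1.97 ± 0.14 log2 units in E1 (SE, adjusted p = 5.31e-07), 3.92-fold, and by 1.40 in E2, 0.98 in D6 and 0.68 in E6. In E3 the difference was 0 (adjusted p = 0.982). Neighbours in the order differed between B7 and E6, D6 and E2, and E2 and E1, and not between E3 and B7 or between E6 and D6 (adjusted p = 0.138). E3 was also the clone with the most WNT5A, while E1, with the least DKK1, lay below E3, D6 and E6 in WNT5A.

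AXIN2, a scaffold of the destruction complex that is itself a widely used target of beta-catenin, was higher in every tolerant clone. Its probe (ILMN_1724480) was not well above background in B7, at 5.76 and 5.56. It was detected on all 10 tolerant arrays, with E6 at 7.18 and 7.21, D6 at 7.06 and 7.01, E2 at 6.79 and 6.72, E1 at 6.59 and 6.54, and E3 at 6.13 and 6.14. The groups did not overlap, although E3 lay only just above the detection limit. The mean difference was 1.08 ± 0.38 (SE, adjusted p = 0.149, 95% interval 0.17 to 1.98), at least 1.72-fold, and the probe passed the filter through the tolerant clones alone.

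In single clones over arrays, the bound for AXIN2 was at least 2.37-fold in E6 (adjusted p = 8e-08) and at least 1.13-fold in E3 (adjusted p = 0.00061). E6 and D6 did not differ as neighbours (adjusted p = 0.165), nor did E2 and E1 (adjusted p = 0.0772), while the other neighbours did. The orders of AXIN2 and DKK1 over the tolerant clones were thus different: E3 was lowest for AXIN2 and highest for DKK1. RNF43, a ubiquitin ligase that removes Frizzled receptors and is also a target of the pathway, read -21.6 to 5.09 scanner units on the 12 arrays and gave no comparison.

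The transcription factors were lower or near their B7 levels. LEF1 (ILMN_1679185) stood at 7.60 and 7.57 in B7 and between 6.73 and 7.24 on the 10 tolerant arrays, with no overlap. Its difference was -0.57 ± 0.19 (SE, adjusted p = 0.134, 95% interval -1.03 to -0.12), and its other probe (ILMN_2213136) differed by -0.69 ± 0.21 (adjusted p over probes 0.128). Over arrays, LEF1 was lower in each tolerant clone, from 1.38-fold in E6 (adjusted p = 0.011) to 1.70-fold in E3 (adjusted p = 0.000542). At this brightest probe the 5 tolerant clones did not differ as neighbours. At the other probe, E3 lay below E2 and E6 over arrays (adjusted p over probes 0.0185 and 0.0243). The calls of the brightest probe in E1, E2 and E6 each ended without 1 of the arrays. These were E1 replicate 2 for E1, B7 replicate 1 or E2 replicate 2 for E2, and B7 replicate 1 or E6 replicate 2 for E6. The call in E2 also ended with the authors' processed values (adjusted p = 0.0625).

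TCF7L2 (ILMN_1672486), a TCF factor expressed in many epithelia, was close to the detection limit, which both B7 arrays (6.25 and 6.55) and 6 of the 10 tolerant arrays exceeded. The tolerant arrays ranged from 5.64 to 6.34 and overlapped with B7. Its difference was -0.40 ± 0.21 (adjusted p = 0.28, 95% interval -0.90 to 0.10). Over arrays it was lower in D6 (at least 1.31-fold, adjusted p = 0.0127) and E3 (1.45-fold, adjusted p = 0.0199), and both calls ended without B7 replicate 2, the first also without D6 replicate 2 and the second without E3 replicate 1. Scaling by the 75th percentile ended both as well (D6 at -0.30, adjusted p = 0.153, and E3 at -0.44, adjusted p = 0.0533).

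**Figure D2:**
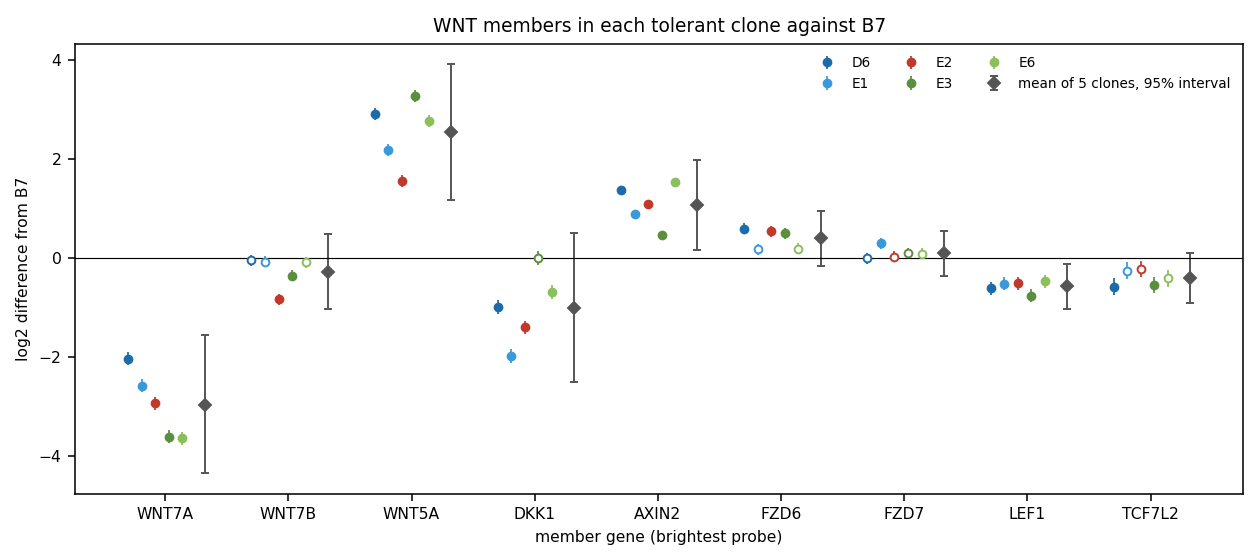
Log2 difference from B7 (vertical axis) of the 9 tested members at the brightest probe (horizontal axis), with 1 circle per tolerant clone and its SE over arrays (filled where the adjusted p was under 0.05) and a diamond for the mean of the 5 clones with its 95% interval. WNT7A lies between -3.64 and -2.03, WNT5A between 1.56 and 3.28, and DKK1 spreads from -1.97 to 0, while FZD7 stays near 0 and turns to -0.14 in the mean with median scaling.

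Counted per clone over arrays, many members were called, as were 47.1% to 65.5% of all genes. D6, E2 and E3 had 7 of 9 members called, against 64.3%, 47.1% and 59.6% of all genes. E1 had 6, against 65.5%, and E6 had 5, against 61.3%. Called in 1 direction in all 5 clones were 4 of 9 members, WNT5A and AXIN2 higher and WNT7A and LEF1 lower, against 28.5% of all genes (14.6% higher and 14% lower). WNT5A and AXIN2 passed the filter on dim probes only through the tolerant clones, in which they were high. The counts of members in this paragraph are therefore a description. Between pairs of tolerant clones, from which the order of levels was read, 32.1% of all genes were called for D6 and E1, 51.6% for D6 and E2, 34.6% for D6 and E3, 34.2% for D6 and E6, and 54.6% for E1 and E2. The share was 42.8% for E1 and E3, 40.1% for E1 and E6, 40.2% for E2 and E3, 45.8% for E2 and E6, and 30.3% for E3 and E6. Among the 5 tolerant clones, the moderated F test called 6 members, WNT7A, WNT7B, WNT5A, DKK1, AXIN2 and FZD6, against 73% of all genes. It called 5 when E2 was left out, where the share of all genes was not counted. The adjusted p of the F test over all 5 clones was 5.3e-06 for WNT7A, 5.32e-06 for WNT5A, 7.8e-06 for DKK1 and 1.05e-05 for AXIN2. FZD7, LEF1 and TCF7L2 did not pass the F test at their brightest probes (adjusted p = 0.143, 0.277 and 0.241). The other probes of FZD7 and LEF1 did pass it (adjusted p over probes 0.0017 and 0.0277). Over all 21912 probes kept, 0 of the 12 member probes passed the clone-level limma fit, against 2.39% of the probes.

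Beyond the members, 92 pathway genes were listed by role, of which 89 had a probe and 58 were tested. With the clone as the replicate, 4 rose in the tolerant clones and 2 fell, against 1.4% and 1.44% of all genes, and their median difference was -0.07. Of these 6 genes, 4 (WNT4, WNT6, TLE2 and DKK3) passed the filter on dim probes only through the group in which they were high, so the count is a description. Without clone E2 14 of the list were called, without E3 3 and without E6 1, and the share called among all genes moved in the same direction, to 17.3%, 0.669% and 0.702%. Among the 7 other ligands tested, 2 rose, 0 fell and 5 did not pass, with a median of 0.40. WNT4, a ligand known from kidney and reproductive tract development, was not well above background in B7 (5.43) and stood at 7.87 to 8.49 in the tolerant clones, at least 4.83-fold higher (adjusted p = 0.0083).

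Scanner intensity of WNT4 was -1.46 and 6.52 units in B7 and 193 to 307 on the tolerant arrays. Over arrays it was higher in each clone, from at least 3.79-fold in E2 (adjusted p = 5.74e-08) to at least 5.79-fold in E1 (adjusted p = 3.55e-09). WNT6, a ligand of epithelial development, was likewise detected in the tolerant clones alone and was at least 1.32-fold higher (adjusted p = 0.0436). That call was lost without any 1 of 6 arrays, B7 replicate 1, D6 replicate 1, E1 replicate 1, E1 replicate 2, E3 replicate 1 and E6 replicate 2 (adjusted p = 0.0525 to 0.0886), and without clone D6, E1, E3 or E6 (0.0772 to 0.0999), of 0.0199 to 1 over all alternatives. WNT6 also lost its call with the authors' processed values (0.144), without normexp (0.0827), with a normexp offset of 50 (0.0722), with the clone as a random block (0.175) and with a minimum difference of 1 log2 unit. WNT3, WNT5B, WNT9A, WNT10A and WNT10B did not pass (adjusted p = 0.264 to 0.809). WLS, the carrier that brings WNT proteins to the cell surface and the only gene tested for ligand secretion, differed by 0.50 ± 0.60 (adjusted p = 0.642).

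Of 12 other receptors and co-receptors, 0 passed the limma test, with a median of -0.04. The largest values were those of FZD4 (-1.19 ± 0.31, adjusted p = 0.0855), a Frizzled known from retinal vessels, and FZD2 (1.10 ± 0.24, adjusted p = 0.0617), a receptor also known for WNT5A. Without E2 both passed (adjusted p = 0.043 and 0.0207, of 0.0106 to 1 and 0.00745 to 1 over all alternatives). In the R-spondin group 2 genes were tested, the receptor LGR4 (-0.80 ± 0.23, adjusted p = 0.107) and RSPO2 (0.10 ± 0.22, adjusted p = 0.80), and neither passed. LGR4 passed without E2 (adjusted p = 0.0468, of 0.0468 to 1 over all alternatives).

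Of 9 secreted or membrane inhibitors beside DKK1, 2 fell, 0 rose and 7 did not pass, with a median of -0.32. SFRP1, a decoy that binds WNT ligands outside the cell, read 1012 and 1155 scanner units in B7 and 131 to 303 on the 10 tolerant arrays. Its log2 level was 9.76 in B7, against 7.62 to 8.49 over the tolerant clones, 3.43-fold lower (adjusted p = 0.0493). The call was lost without clone E1, E3 or E6 (adjusted p = 0.087 to 0.112) and without any 1 of 5 arrays, B7 replicate 2, D6 replicate 2, E2 replicate 1, E3 replicate 2 and E6 replicate 1 (0.052 to 0.0641), of 0.0025 to 1 over all alternatives. SFRP1 also lost its call with the authors' processed values (0.0871), without normexp (0.0733), with a normexp offset of 50 (0.05) and with a minimum difference of 1 log2 unit. Over arrays it was lower in each clone, from -1.27 ± 0.12 (SE) log2 units in D6 to -2.14 ± 0.12 in E6.

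DKK3, a divergent Dickkopf protein, was read at its brightest kept probe. That probe was above the detection limit in B7 and on 0 of 10 tolerant arrays, a level at least 1.22-fold lower (adjusted p = 0.017). It lost the call without clone E3 (0.0586) or E6 (0.0557), of 0.00423 to 1 over all alternatives. A second DKK3 probe also detected in B7 alone differed by -1.26 (adjusted p over probes 0.0362). The filter left out 2 further probes, which differed by 0.01 and -0.16. The first of them had the opposite detection, on 0 B7 arrays and 3 tolerant arrays, so the DKK3 probes disagreed. In the Dishevelled and destruction complex list 0 of 8 genes passed the limma test, with a median of 0.04, the largest values being GSK3B (-0.68 ± 0.39, adjusted p = 0.308) and CSNK1A1 (0.42 ± 0.22, adjusted p = 0.28), kinases that mark beta-catenin for degradation. Other probes of CSNK1A1 differed by -0.31 and -0.14.

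Of 10 genes for beta-catenin and its nuclear partners, 1 rose and 0 fell, with a median of -0.12. It was TLE2, a Groucho co-repressor that binds TCF factors, not well above background in B7 and at 7.76 to 8.89 log2 units in the tolerant clones, at least 5.71-fold higher (adjusted p = 0.0162). Of 11 transcriptional targets, 1 rose and 0 fell, with a median of -0.32, and the other 10 did not pass. MMP7 and CCND1, named after their values were seen, had the highest and the lowest fitted difference among the targets. MMP7 had a tolerant mean at least 6.23-fold over B7, where it was not well above background (adjusted p = 0.132). It passed the filter on dim probes through the tolerant clones alone. CCND1 was 4.14-fold lower in the tolerant mean (-2.05 ± 0.46, adjusted p = 0.0666). The gene that rose was BAMBI, a pseudoreceptor that dampens TGF-beta signals and is also a beta-catenin target, at 7.70 in B7, against 9.98 to 11.12 over the tolerant clones, 7.50-fold higher (adjusted p = 0.0202). Without clone E6 the calls of TLE2 and BAMBI were lost (adjusted p = 0.0557 and 0.0576, of 4.16e-05 to 0.151 and 2.99e-05 to 0.204 over all alternatives).

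**Figure D3:**
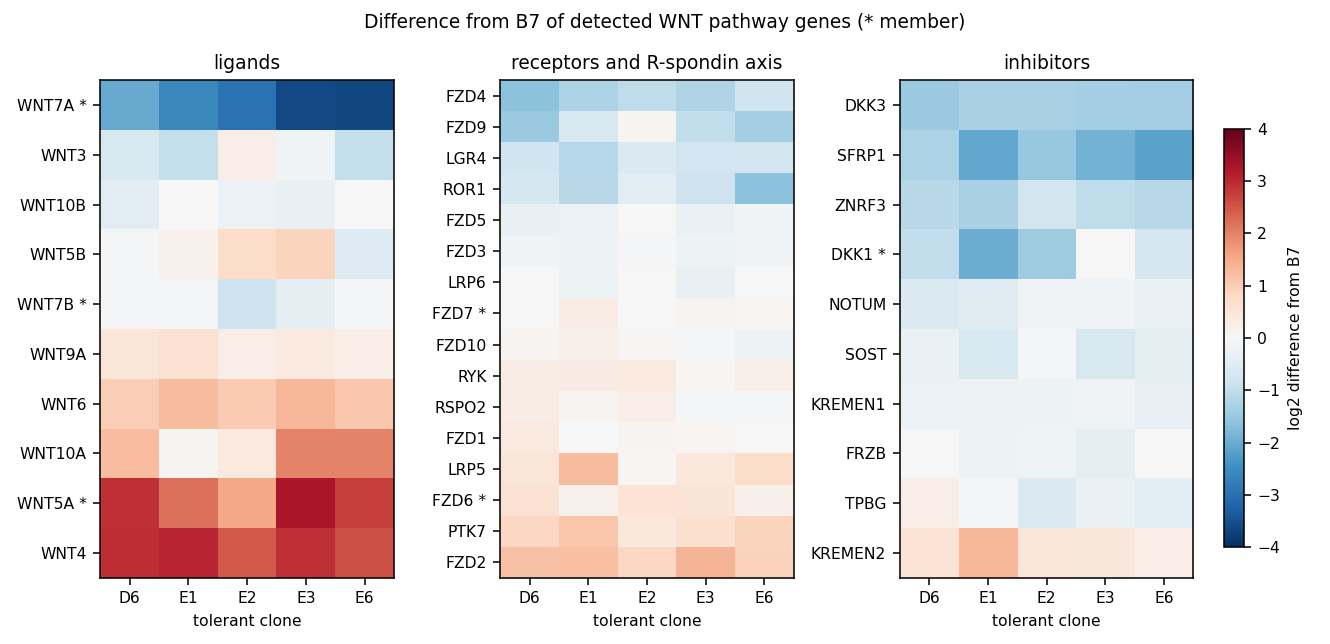
Log2 difference from B7 (colour scale) of each tested ligand, receptor or R-spondin gene, and inhibitor (rows, members starred) in each tolerant clone (columns). WNT7A is lower by 2.03 to 3.64 while WNT4 and WNT5A are higher by 1.56 to 3.28 (their B7 arrays not well above background), SFRP1 and DKK3 are lower in all 5 clones, and DKK1 differs in E1 and not in E3.

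**Figure D4:**
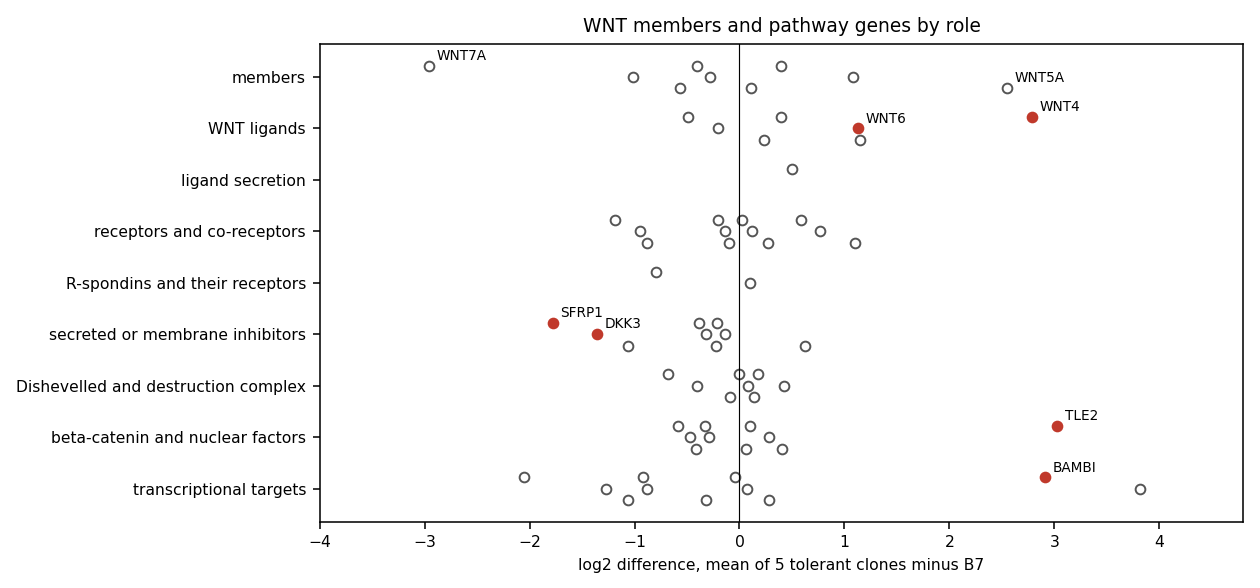
Log2 difference of the mean of the 5 tolerant clones from B7 (horizontal axis) for the 9 members and the 58 other pathway genes by role (vertical axis, points staggered to keep them apart, a gene of 2 lists drawn in each), filled where the adjusted p was under 0.05. The 6 filled points are WNT4, WNT6, TLE2 and BAMBI to the right and SFRP1 and DKK3 to the left, and no member is filled.

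For the 4 members whose clone means spanned at least 1 log2 unit, the genes with the most similar course over the 6 clones were looked up among 4029 other genes with such a span. The likeness is Pearson's r over 6 clone means, a description with few points that share libraries and brightness. WNT7A was followed most closely by DYNAP (r = 0.994) and PLEKHN1 (r = 0.993), and 36 genes exceeded 0.95. DYNAP stood at 6.58 in B7. Its means of 5.14 to 5.80 in the tolerant clones lay under the lowest detected value of any array (5.949), so its order among them is one of background values. WNT5A was nearest to APBB3 (r = 0.988) and ACOT1 (r = 0.988), with 77 genes above 0.95. For DKK1 only USP22 (r = 0.961) and WDR55 (r = 0.952) exceeded it, and for AXIN2 only FAM120AOS (r = 0.993) and PLBD1 (r = 0.974).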

How the data were processed

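RNA of 12 samples, 2 for each of 6 PC9 clones, was measured on Illumina bead arrays after labelling as biotinylated cRNA, per the labels' protocols. The authors deposited scanner intensity with background already subtracted, as its negative values show, and the software that made it is not given in the sources used here. A second deposited table holds the authors' normalized intensity with a floor of 20 and an unstated method, and it served as an alternative. The 12 deposited columns for detection p-values hold 0 filled cells.

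The noise of each array was the root mean square of its negative intensities (8.63 to 10.3). A probe was called detected above 2.33 times that value (limits of 20.1 to 24.1), and it stayed in when some clone had it detected on both of its arrays (21912 of 47229 probes; 19302 to 20290 were detected per array). Intensities were corrected with normexp (offset 16), quantile normalized and log2 transformed with limma 3.58.1 in R 4.3.3. A gene was read at its brightest kept probe, which gave 12250 genes. Names came from the platform annotation, in which 30112 probes had 1 gene, 8 several and 17109 none.

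The difference of the 5 tolerant clones from B7 was fitted with limma on 6 clone means. B7 gave 1 of these means, so the spread in that fit comes from the 5 tolerant clones alone. Single clones, and the moderated F test among the tolerant clones, were fitted on the 12 arrays. Values of p were adjusted with Benjamini-Hochberg over all genes, with a threshold of 0.05. A gene not above background in 1 group was given a bound on its fold, with the dim group's arrays raised to the lowest detected value. The procedure was tested on simulated data. For the tolerant clones against B7, the number of clones limits the precision, with 1 of them sensitive. For single clones, the number of arrays limits it.

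Alternatives covered the background correction, scaling, filter, choice of probe, an intensity trend of the variance, a minimum difference of 1 log2 unit, a block for replicate number, a random block for clone, and the omission of single arrays or tolerant clones. The members and pathway lists were chosen with earlier results of these data known. All 10 members are named. From each pathway list, up to 4 called genes with the largest difference are named, or the 2 largest where none was called. The 5 uncalled ligands, MMP7, CCND1, the other CSNK1A1 and DKK3 probes and the list counts were added after their values were seen. Likeness partners were the 2 genes with the highest Pearson r. PORCN, TCF7 and EPHB2 were not analysed here. Equal replicate numbers did not pair the arrays: deviations of same-numbered arrays correlated at -0.0248 to 0.0543 over 15 pairs of clones.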

Additional observations from a re-analysis of the deposited data

Results flagged for a closer look

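WLS, the carrier of WNT proteins to the cell surface, moved in opposite directions against B7 in different tolerant clones. It was higher in D6 by 1.18 log2 units (adjusted p = 8.47e-07, limma over arrays), in E1 by 1.22 (adjusted p = 5.9e-07) and in E3 by 0.42 (adjusted p = 0.002). It was lower in E6, at -0.41 (adjusted p = 0.00224), and in E2 the value was 0.08 (adjusted p = 0.481). The difference from E6, tested between the clones over arrays, was 1.59 for D6, 1.63 for E1 and 0.83 for E3. Its 4 other probes were higher than B7 in D6 and E1 and lower in E6, while in E3 they disagreed, 1 at 0.31 and the other 3 at -0.16 to -0.01. The share of all genes with such opposite calls was not counted, and 47.1% to 65.5% of all genes were called against B7 per clone.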

How the results depend on the processing

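Of 186 counts recomputed under alternatives, 163 stayed within 1.5 times the main count and 23 did not. The count of members called between the tolerant clones and B7 was 0 in the main setting, 1 with a normexp offset of 50, with median scaling or with an intensity trend, 2 with 75th percentile scaling and 3 with the clone as a random block. Leaving out 1 array or tolerant clone gave 0 to 2. For the pathway list of 6 calls, a minimum difference of 1 log2 unit gave 0, the random block gave 12, and leaving out 1 array or clone gave 1 to 14. The share called among all genes was 2.83% in the main setting, 2.56% with the offset of 50, 3.76% with median scaling, 3.09% with the intensity trend and 3.44% with 75th percentile scaling. It was 0.122% with the minimum difference, 14.6% with the random block and 0.669% to 17.3% over the omissions, the highest without E2, as for the list. With the minimum difference, 3 members were called in D6, 3 in E1, 2 in E2, 2 in E3 and 3 in E6. The share of all genes per clone was not counted in that setting, so these counts are a description. Directions turned for 3 genes that were named: FZD7 (-0.14 with median scaling), DKK3 (0.01 with no filter on dim probes, where the brightest probe was another one) and CSNK1A1 (-0.01 as the mean over its probes). With the replicate number as a block, 7, 6, 7, 7 and 5 members were called in D6, E1, E2, E3 and E6 and 6 among the tolerant clones, as without it, and the pairing check gave no correlation over 0.1. Leaving E2 out of the F test, chosen after seeing the data, gave 5, and the share of all genes was not counted for it. Of 32 called differences between 1 tolerant clone and B7, 13 kept the call under all 22 alternatives, 19 lost it under some and 0 turned. The minimum difference of 1 log2 unit, a stricter question rather than another processing, ended the call in all 19. For some, such as AXIN2 in E1, E2 and E3, it was the only alternative that did. Signals near background limit WNT5A and AXIN2 in B7, WNT7A in E3 and E6, and TCF7L2 and RNF43 throughout.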
